A study of Chlamydomonas reinhardtii with 6 samples.

Results

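The nuclear genes for the extrinsic proteins of the oxygen-evolving complex and for small subunits of photosystem II were described in the unicellular green alga Chlamydomonas reinhardtii, across cultures with 6 or 1000 µM manganese. The 6 genes were taken by identifier: PSBO (Cre09.g396213.v5.5), PSBP1 (Cre12.g550850.v5.5), PSBQ (Cre08.g372450.v5.5), PSBR (Cre06.g261000.v5.5), PSBX (Cre02.g082750.v5.5) and PSBY (Cre10.g452100.v5.5). All 6 were found among the 17741 gene models of the deposited table. The symbols came with the choice of identifiers, since neither the table nor the RefSeq gene table used here carries symbols to check them against.

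Photosystem II is the thylakoid membrane complex that uses light to oxidise water, and its catalytic centre is a cluster of manganese and calcium ions bound on the lumenal side. In algae and plants, PSBO, PSBP and PSBQ are lumenal proteins that cover this cluster: PSBO stabilises the manganese ions, and PSBP and PSBQ help to hold calcium and chloride at the site. In plants PSBR is needed for PSBP to bind stably, while PSBX and PSBY are small membrane-spanning subunits located near cytochrome b559. The core subunits that bind the cluster and the pigments are encoded in the chloroplast genome and are not considered here.

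Each group held 3 flasks of strain CC-4532 in acetate-containing medium, one group with 6 µM manganese, the level labelled as control, and the other with 1000 µM. All flasks were inoculated from 1 starter culture, shaken under continuous light at 24 °C and collected in mid-logarithmic growth at 3000000 cells per mL. Poly-A RNA was sequenced, and the values are FPKM, fragments scaled to transcript length and library size. Levels can be compared between genes only as far as that length scaling holds, which could not be checked here. The sequencing depth behind the values is unknown. Because all flasks came from the same strain and starter culture, the tests reflect variation among sister flasks only. FPKM values are relative to the library, so a change in RNA per cell that touches all genes alike would not show, and fewer cells expressing a gene cannot be told apart from less RNA of it per cell.

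Across all tested genes, 6 µM replicate 1 and 1000 µM replicate 3 stood apart from the other libraries. On the first principal component of log2(FPKM + 1), which held 57.8% of the variance, they scored 0.36 and 0.73 (scores of unit length), and the other 4 scored between -0.38 and -0.11. They carry different manganese labels, so each group held 1 such library. Results are given below with and without them. The labels name no batch.

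All 6 genes were abundant, and none was absent or under 1 FPKM in any library. The lowest of the 36 values was 148 FPKM, for PSBX, and the highest was 4953 FPKM, for PSBR. Ranked by mean FPKM among the 17741 models, PSBR stood at 21, PSBO at 91, PSBP1 at 107, PSBQ at 135, PSBY at 304 and PSBX at 414. Together they made up 1.21% to 1.45% of the summed FPKM of a library. By RefSeq assembly v5.5 they lie on 6 different chromosomes: PSBO on chromosome 9 from 4556780 to 4559169, PSBP1 on chromosome 12 from 8183096 to 8185589, PSBQ on chromosome 8 from 2553650 to 2556775. PSBR lies on chromosome 6 from 1651220 to 1652875, PSBX on chromosome 2 from 1265927 to 1267150 and PSBY on chromosome 10 from 4520613 to 4523220. No other gene model overlapped any of them, although the next model lay 8 bp from PSBR and 11 bp from PSBY, where reads could be divided between neighbours.

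None of the 6 genes differed detectably between 1000 and 6 µM manganese. The test was limma's, run on the 12543 genes averaging 1 FPKM or more, and p-values were adjusted over all of them. At an adjusted p of 0.05, 0 of 6 passed, against 0 of all tested genes (0%), and the adjusted p was 1.00 for each of the 6. At an unadjusted p under 0.05 there were 0 of 6, against 354 of the tested genes (2.82%). The 95% intervals of all 6 differences held 0. Read as fold changes of FPKM + 1, their ends reached 1.35-fold upward and 1.39-fold downward, unadjusted for the number of genes. These ends hold for all 6 libraries with FPKM as listed. The differences moved with some of the scalings and with omitted libraries, as given below.

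PSBO, the manganese-stabilising protein, was listed at 1791, 2025 and 2052 FPKM in 6 µM replicates 1, 2 and 3 and at 2035, 2153 and 1793 FPKM in 1000 µM replicates 1, 2 and 3. One library of each group was low and the groups overlapped. At 6 µM the mean was 1956 ± 144 FPKM, and at 1000 µM it was 1994 ± 183 FPKM (SD, n = 3 each). The difference of log2(FPKM + 1) was 0.026, with a 95% interval from -0.25 to 0.30, and it was 0.038 among the 4 libraries that did not stand apart.

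PSBP1, the second extrinsic protein, was listed at 1286, 1788 and 1810 FPKM at 6 µM and at 1732, 1873 and 1236 FPKM at 1000 µM, in the order of the replicate numbers. The low libraries were again 6 µM replicate 1 and 1000 µM replicate 3, and the other 4 lay between 1732 and 1873 FPKM. The means were 1628 ± 297 and 1614 ± 334 FPKM (SD, n = 3 each), and the log2 difference was -0.018, with an interval from -0.47 to 0.43. Among the 4 libraries that did not stand apart the difference was 0.0016 on the same scale.

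PSBQ, the third extrinsic protein, was listed at 1147, 1141 and 1066 FPKM at 6 µM and at 1088, 1189 and 1316 FPKM at 1000 µM. Here 1000 µM replicate 3 was the highest library and 6 µM replicate 1 was the highest of its group, although the groups overlapped. The means were 1118 ± 45.4 and 1198 ± 115 FPKM (SD, n = 3 each). The log2 difference was 0.096, with an interval from -0.17 to 0.36, and it was 0.045 among the 4 libraries that did not stand apart. With a common FPKM total per library it was 0.0076.

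PSBR was the most abundant of the 6 in every library, at 3778, 4401 and 4447 FPKM at 6 µM and at 4416, 4953 and 3521 FPKM at 1000 µM. The lowest and the highest library both belonged to the 1000 µM group. The means were 4209 ± 374 and 4297 ± 723 FPKM (SD, n = 3 each), and the log2 difference was 0.020, with an interval from -0.33 to 0.37. Without the libraries that stood apart it was 0.080.

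PSBX was the least abundant, at 148, 215 and 215 FPKM at 6 µM and at 188, 193 and 158 FPKM at 1000 µM. The means were 193 ± 38.5 and 179 ± 19.0 FPKM (SD, n = 3 each), and the log2 difference was -0.086, with an interval from -0.47 to 0.30. The groups overlapped through 6 µM replicate 1, the lowest library of all. With both libraries that stood apart left out, the remaining values at 1000 µM lay below those at 6 µM, with a log2 difference of -0.17 that did not pass either (limma adjusted p = 0.928, in a range from 0.816 to 1.00 over the alternatives for this gene).

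PSBY varied least, at 277, 284 and 289 FPKM at 6 µM and at 293, 293 and 314 FPKM at 1000 µM. All libraries at 1000 µM lay above those at 6 µM, the single gene of the 6 without overlap. This also held, in the same direction, for 4.34% of all tested genes, and the opposite order held for 0 of the 6 and for 3.7% of all tested genes. The means were 283 ± 6.10 and 299.7 ± 12.4 FPKM (SD, n = 3 each). The log2 difference was 0.081, with an interval from -0.15 to 0.31, and 0.030 without the libraries that stood apart. After scaling every library to one common FPKM total, the groups overlapped and the difference was -0.0069.

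**Figure D1:**
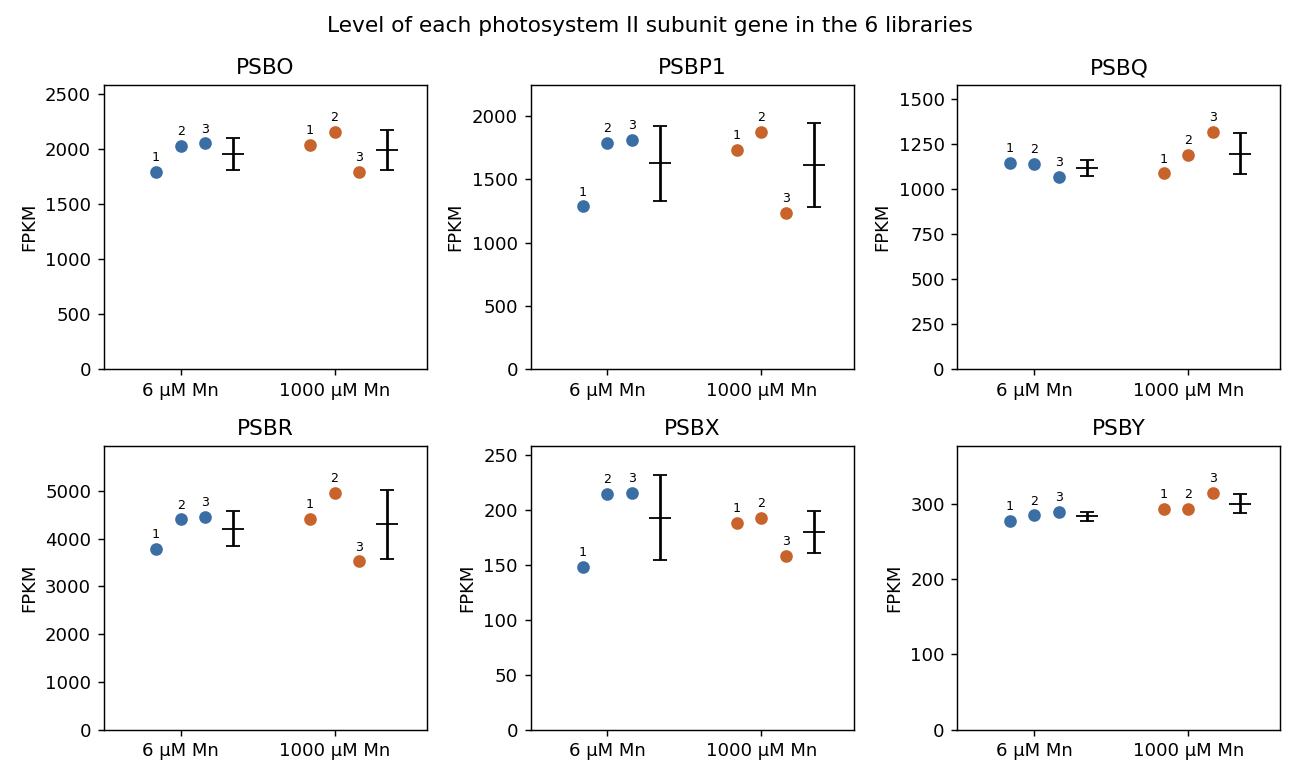
FPKM of the 6 genes (one panel each, y axis from 0) in the 3 libraries at 6 µM (blue) and the 3 at 1000 µM manganese (orange), with the replicate number above each point and the group mean ± SD in black. In PSBO, PSBP1, PSBR and PSBX, 6 µM replicate 1 and 1000 µM replicate 3 are the lowest of their groups, and PSBY is the single gene whose groups do not overlap.

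The 6 differences had a median of 0.023 on the log2(FPKM + 1) scale, 4 above and 2 below 0. The median was 0.011 over all tested genes and 0.089 over the 677 genes averaging 100 FPKM or more, the range of abundance to which the 6 belong. Under that common-total scaling these medians became -0.065, -0.061 and 0.0013. PSBO, PSBR and PSBY then changed sign. Scaling each library by its median ratio to the genes' geometric means gave medians of 0.021, 0.0089 and 0.087 and kept all 6 signs. Since signs depended on the scaling chosen, no direction is given for the group as a whole. The summed FPKM of the 6 genes was 9386 ± 831 at 6 µM and 9581 ± 1167 at 1000 µM (SD, n = 3 each; exact two-sided permutation p = 1, where 3 against 3 cannot go below 0.1). As a share of all FPKM it was 1.39% ± 0.0561 and 1.33% ± 0.104 (SD, n = 3 each; exact permutation p = 0.6).

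**Figure D2:**
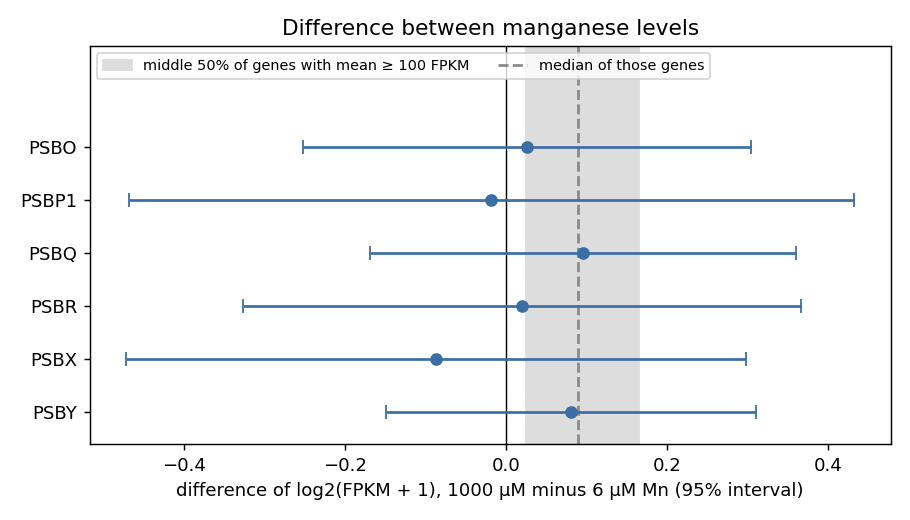
Difference of log2(FPKM + 1) between 1000 and 6 µM manganese for each gene (points) with its 95% interval from limma (bars). The grey band and the dashed line give the quartiles and the median, 0.089, of the 677 genes averaging 100 FPKM or more, and every interval crosses 0.

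The genes varied unequally between replicate flasks. The SD of log2(FPKM + 1) within groups was 0.30 for PSBP1, 0.24 for PSBX, 0.20 for PSBR, 0.12 for PSBO, 0.11 for PSBQ and 0.047 for PSBY. Its median over the 677 genes averaging 100 FPKM or more was 0.16. A smaller SD than that of PSBP1 was found in 86.9% of those genes, and a smaller one than that of PSBY in 1.77%.

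The low values of the more variable genes lay in the libraries that stood apart. In 6 µM replicate 1, PSBP1 was at 71.5% of the mean of the other 6 µM libraries, and PSBX at 68.9%. In 1000 µM replicate 3, PSBP1 was at 68.6% of the mean of the other 1000 µM libraries, PSBR at 75.2% and PSBX at 82.8%. PSBR was at 85.4% in 6 µM replicate 1, and PSBO was at 87.8% and 85.6% in the libraries named. PSBQ instead reached 104% and 116%, and PSBY 96.5% and 107%. Thus 4 of the 6 genes had their group's lowest value in both libraries that stood apart. PSBQ had its group's highest in both, though in 6 µM replicate 1 only at 1147 FPKM against 1141 in 6 µM replicate 2. Of the 677 genes averaging 100 FPKM or more, 34.6% were lowest and 30.6% highest in both, so either pattern was frequent among abundant genes. Compared with each other, 1000 µM replicate 3 minus 6 µM replicate 1, these libraries differed in log2(FPKM + 1) by 0.0019 for PSBO, -0.057 for PSBP1, 0.20 for PSBQ, -0.10 for PSBR, 0.089 for PSBX and 0.18 for PSBY. No depth or batch for these libraries is given in the labels, and the part of either in the pattern was not tested.

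**Figure D3:**
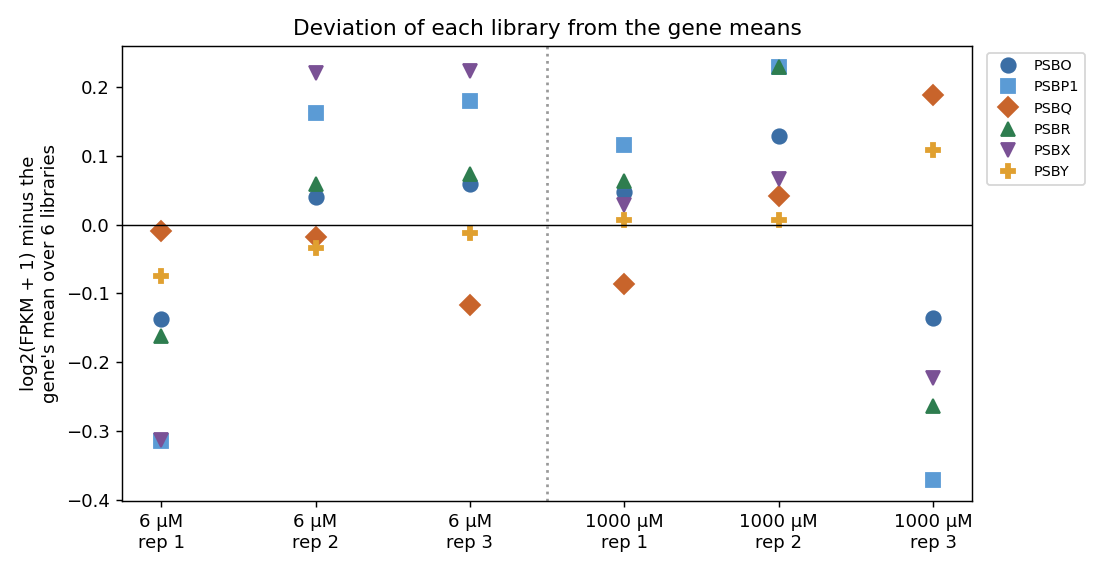
The log2(FPKM + 1) of each gene in each library minus the gene's mean over the 6 libraries, with 6 µM libraries left and 1000 µM libraries right of the dotted line. PSBP1 lies at -0.31 in 6 µM replicate 1 and at -0.37 in 1000 µM replicate 3, while PSBQ lies at -0.0097 and 0.19.

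Ordered by FPKM, PSBR came first, followed by PSBO, PSBP1, PSBQ, PSBY and PSBX. PSBR exceeded PSBO in 6 of 6 libraries, by 1.96 to 2.30 times, PSBQ exceeded PSBY by 3.69 to 4.19 times, and PSBY exceeded PSBX by 1.33 to 1.99 times. PSBO exceeded PSBP1 within each of the 6 libraries, by 1.13 to 1.45 times, although their ranges over libraries overlapped. PSBP1 exceeded PSBQ in 5 of 6 libraries and was lower in 1000 µM replicate 3, so the order of these neighbours did not hold beyond their spread.

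The ratio of 2 genes within a library does not change when all values of that library are multiplied by 1 factor. A normalization that treats genes unequally could change it, and the ratios were not recomputed under one. None of the 15 ratios between the 6 genes differed detectably between manganese levels. The groups overlapped in all 15, and the 95% interval of the log2 difference, from the pooled SD and unadjusted for the number of ratios, held 0 in all 15. The smallest exact two-sided permutation p was 0.4 (0.857 adjusted over the 15 ratios), and none can fall below 0.1 with 3 libraries against 3. The largest difference, 0.18 for PSBQ to PSBX, had an interval from -0.53 to 0.90. Leaving out 6 µM replicate 1 made it 0.38, leaving out 1000 µM replicate 3 made it 0.022, and leaving out both made it 0.22.

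Among the extrinsic proteins, the ratio of PSBO to PSBP1 was 1.39, 1.13 and 1.13 in the 6 µM libraries and 1.18, 1.15 and 1.45 in the 1000 µM libraries. Its means were 1.22 ± 0.150 and 1.26 ± 0.167 (SD, n = 3 each), so the log2 ratio differed by 0.044 with an interval from -0.36 to 0.45. The ratio of PSBO to PSBQ was 1.56, 1.78 and 1.93 at 6 µM and 1.87, 1.81 and 1.36 at 1000 µM. Its means were 1.75 ± 0.183 and 1.68 ± 0.278 (SD, n = 3 each), so the log2 ratio differed by -0.070 with an interval from -0.54 to 0.40. For both ratios the libraries that stood apart gave the extreme values, high for PSBO to PSBP1 and low for PSBO to PSBQ. Among the other 4 libraries the differences were 0.037 and -0.0066.

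The ratio of PSBP1 to PSBQ varied most, by 1.81 times between its lowest and highest library. It was 1.12, 1.57 and 1.70 at 6 µM and 1.59, 1.58 and 0.939 at 1000 µM, with means of 1.46 ± 0.303 and 1.37 ± 0.372 (SD, n = 3 each). The log2 difference was -0.11, with an interval from -0.98 to 0.75 (exact permutation p = 0.7). Without the libraries that stood apart it was -0.043, and it changed sign to 0.14 without 1000 µM replicate 3 alone and to 0.0055 without 6 µM replicate 3 alone.

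The ratio of PSBR to PSBO had the smallest SD of the 15, 0.075 over the 6 libraries on the log2 scale. It was 2.11, 2.17 and 2.17 at 6 µM and 2.17, 2.30 and 1.96 at 1000 µM, with means of 2.15 ± 0.0351 and 2.14 ± 0.170 (SD, n = 3 each). The log2 difference was -0.0065, with an interval from -0.20 to 0.18. The ratio of PSBQ to PSBY had an SD of 0.079 and the narrowest range, 1.14 times from lowest to highest library, against 1.17 times for PSBR to PSBO. It was 4.15, 4.01 and 3.69 at 6 µM and 3.72, 4.07 and 4.19 at 1000 µM. Its means of 3.95 ± 0.234 and 3.99 ± 0.246 (SD, n = 3 each) gave a difference of 0.015 in the log2 ratio, with an interval from -0.19 to 0.21. Without the libraries that stood apart, these differences were 0.042 for PSBR to PSBO and 0.014 for PSBQ to PSBY.

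The ratio of PSBR to PSBP1, whose protein product needs PSBR for stable binding in plants, was 2.94, 2.46 and 2.46 at 6 µM and 2.55, 2.64 and 2.85 at 1000 µM. Its means were 2.62 ± 0.277 and 2.68 ± 0.152 (SD, n = 3 each), so the log2 ratio differed by 0.037 with an interval from -0.23 to 0.31. The ratio of PSBY to PSBX, the small subunits near cytochrome b559, was 1.87, 1.33 and 1.34 at 6 µM and 1.56, 1.52 and 1.99 at 1000 µM. Its means were 1.51 ± 0.308 and 1.69 ± 0.263 (SD, n = 3 each), so the log2 ratio differed by 0.17 with an interval from -0.40 to 0.74. Without the libraries that stood apart, the differences were 0.079 for PSBR to PSBP1 and 0.21 for PSBY to PSBX, which was 0.33 without 6 µM replicate 1 alone and 0.044 without 1000 µM replicate 3 alone. In 13 of the 15 ratios both libraries that stood apart lay outside the range of the other 4, which describes libraries picked after their values were seen. The 15 ratios share 6 genes and are not independent. No share over other gene pairs is given here, so the count is not read as a trait of these genes.

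**Figure D4:**
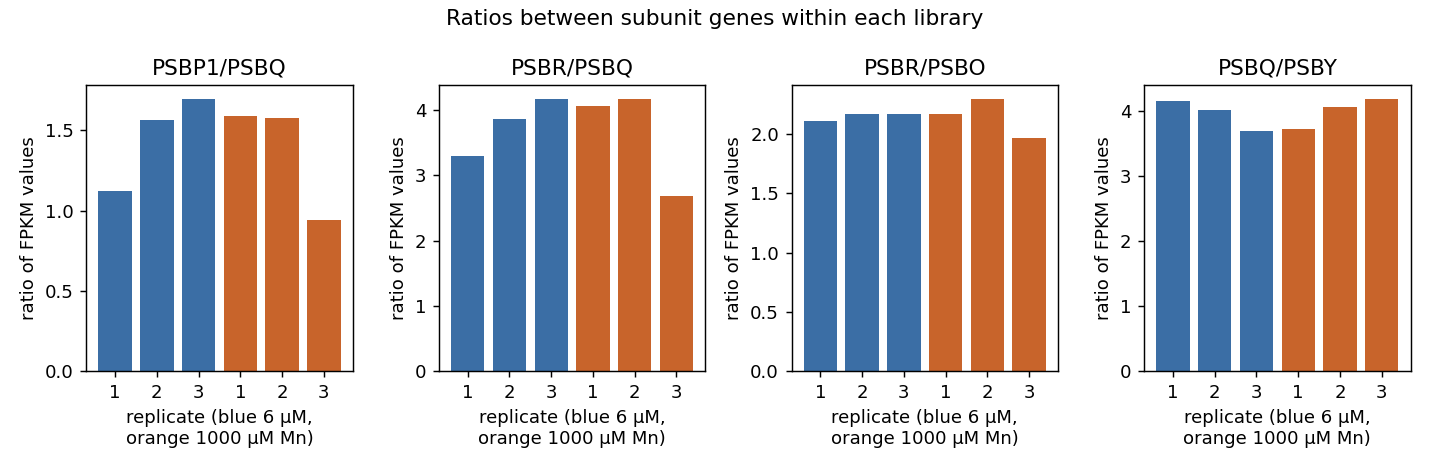
Ratios of FPKM values within each library for PSBP1 to PSBQ, PSBR to PSBQ, PSBR to PSBO and PSBQ to PSBY (y axes from 0), with 6 µM libraries in blue and 1000 µM libraries in orange. The ratio of PSBP1 to PSBQ falls to 1.12 in 6 µM replicate 1 and 0.939 in 1000 µM replicate 3, while PSBQ to PSBY stays between 3.69 and 4.19.

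Other loci were counted from lists written by identifier from general knowledge of the annotation, and their names could not be checked against the reference used here. Of 13 loci listed for photosystem II assembly, repair and photoprotection, 2 averaged under 1 FPKM, with no value above 0.0355 FPKM in any library, and the other 11 were tested. At an unadjusted limma p under 0.05 there were 0 of the 11, against 2.82% of all tested genes, the smallest p being 0.0984. The groups did not overlap for 2 of the 11, both higher at 1000 µM, against 4.34% higher and 3.7% lower of all tested genes. Of 9 loci listed for nuclear photosystem I subunits, with means from 1054 to 2719 FPKM, 0 reached that p either, the smallest being 0.0807. The groups did not overlap for 3 of the 9, all higher, against the same shares of all tested genes. Abundant genes leaned upward as a class, since 550 of the 677 averaging 100 FPKM or more had a difference above 0. The share without overlap among those 677 is not given here, so the 3 of 9 are not read as particular to photosystem I. The median log2 difference was 0.10 in both lists, against 0.089 for the 677 abundant genes, and with a common FPKM total per library it became 0.015 and 0.013, against 0.0013. In both libraries that stood apart, 3 of the 11 loci and 3 of the 9 had their group's lowest value. This held for 26.8% of all tested genes and 34.6% of the 677 abundant genes. The group's highest value lay in both for 2 of the 11 and 4 of the 9, against 30.5% and 30.6%.

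The genes whose course over the 6 libraries was most like the mean course of the 6 subunit genes were Cre11.g467559.v5.5, Cre10.g425350.v5.5 and Cre01.g042150.v5.5. Their root-mean-square deviations from it were 0.014, 0.015 and 0.018 on the log2(FPKM + 1) scale. The deviation was 0.022 for PSBO itself, 0.17 for PSBQ and 0.16 for the median tested gene. The mean levels of these genes were 11.6, 1.91 and 6.19 FPKM, far below those of the subunit genes. Adding 1 FPKM before the logarithm shrinks swings at such levels, most at 1.91 FPKM. The likeness therefore depends in part on that addition. Cre11.g467559.v5.5 was listed at 10.4, 12.2 and 12.1 FPKM at 6 µM and at 11.9, 12.5 and 10.6 FPKM at 1000 µM. Its low values in 6 µM replicate 1 and 1000 µM replicate 3 follow from the choice by likeness to the mean course. They are no separate evidence for that pattern.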

How the data were processed

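Poly-A RNA of 6 Chlamydomonas reinhardtii cultures was sequenced. The deposited table holds the authors' FPKM value of each gene model in each library. The submitters' processing notes name the tools CASAVA, STAR and Cuffdiff 2.2.1. Their options, the build used for alignment, filters and the strand setting are unstated in the sources used here. Columns were matched to samples by manganese level and replicate number in the titles. FPKM values keep no depth, so no counting intervals are given.

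The 12543 genes averaging 1 FPKM or more were tested as log2(FPKM + 1), which understates changes of low genes, with limma 3.58.1 in R 4.3.3 (lmFit, eBayes with trend, two-sided, Benjamini-Hochberg over all tested genes, 95% intervals). Ratios were compared by exact permutation over libraries. Both were tested on simulated data. Positions come from a RefSeq table of assembly Chlamydomonas_reinhardtii_v5.5, joined on locus tags (17738 of 17741). The members, lists, tests and alternatives were chosen with earlier results of these data known. Named were the 6 genes, always, and the 3 tested genes with the smallest root-mean-square deviation from their mean course. Alternatives covered pseudocount, filter, scaling, replicate block, eBayes options, weights and omission of libraries. Figures used matplotlib 3.10.9 in Python 3.11.15.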

Additional observations from a re-analysis of the deposited data

How the results depend on the processing

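In 108 refits of the 6 gene differences (18 alternatives each), none passed the adjusted threshold (smallest limma adjusted p 0.816). The differences stayed between -0.26 and 0.16, and 19 refits changed sign. With libraries brought to a common total, PSBO, PSBR and PSBY became -0.062, -0.069 and -0.0069, and after quantile normalization -0.062, -0.074 and -0.031. PSBQ became 0.0076 and 0.030 and PSBX -0.17 and -0.18 under these scalings. Scaling by median ratios instead left PSBO at 0.024, PSBR at 0.018 and PSBY at 0.079. PSBP1 became 0.034 and PSBQ 0.0055 with library quality weights, and PSBP1 became 0.0016 with both libraries that stood apart left out. Leaving out 1 library at a time gave -0.036 to 0.10 for PSBO, -0.18 to 0.16 for PSBP1, 0.026 to 0.16 for PSBQ, -0.090 to 0.16 for PSBR, -0.26 to 0.0035 for PSBX and 0.047 to 0.098 for PSBY. The 0 genes past the adjusted threshold became 2 with a common total, 26 with quality weights, 3 without both libraries and 0 to 2 with 1 library left out, none of them among the 6. In the weighted fit, 1000 µM replicate 1 had a weight of 6.58, against 0.27 to 1.49 for the other libraries. The 1000 µM group thus rested mostly on 1 library there. Unadjusted, 354 genes had a p under 0.05, against 618 without the filter, 172 when a mean of 5 FPKM was required, 1272 with weights and 638 without both libraries. Of the 354, 135 were higher at 1000 µM, against 37 of 530 with a common total and 88 of 172 when 5 FPKM was required.

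Of 150 recomputed ratio differences, 23 changed sign. With both libraries left out, PSBR/PSBO became 0.042, PSBR/PSBQ 0.035, PSBR/PSBY 0.050 and PSBO/PSBY 0.0078, and from group means PSBR/PSBO became 0.0023. Leaving out 1 library at a time gave -0.059 to 0.056 for PSBR/PSBO, -0.0070 to 0.12 for PSBR/PSBP1, -0.19 to 0.13 for PSBR/PSBQ, -0.19 to 0.11 for PSBR/PSBY, -0.063 to 0.14 for PSBO/PSBP1, -0.15 to 0.075 for PSBO/PSBQ, -0.13 to 0.053 for PSBO/PSBY, -0.29 to 0.14 for PSBP1/PSBQ, -0.24 to 0.12 for PSBP1/PSBY and -0.033 to 0.065 for PSBQ/PSBY. The ratios to PSBX kept their sign, at 0.052 to 0.21 for PSBR, 0.051 to 0.23 for PSBO, 0.0050 to 0.16 for PSBP1, 0.022 to 0.38 for PSBQ and 0.044 to 0.33 for PSBY. What caused these shifts was not tested. Across genes, the deviations of equally numbered libraries correlated at -0.40, 0.51 and -0.50 for replicates 1, 2 and 3, which does not pair them. With a replicate block, 0 genes passed the adjusted threshold and 306 had an unadjusted p under 0.05. The differences of the 6 genes, such as 0.026 for PSBO and -0.018 for PSBP1, and of their ratios were the same numbers by construction. The unknown depth and 3 flasks per group limit what can be seen. The intervals give the range of differences compatible with these libraries, unadjusted for the number of genes. They are not limits of detection, and the smallest change that could pass the adjusted threshold was not estimated.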
